A study of Mus musculus with 6 samples.

Results

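The genes described here encode the muscle acetylcholine receptor and the proteins that gather it at the nerve contact. There are 10 of them among the 18820 genes measured: the receptor subunit genes Chrna1, Chrnb1, Chrnd, Chrng and Chrne, and the clustering genes Agrn, Lrp4, Musk, Dok7 and Rapsn. They were listed by symbol. Where a gene had several probe sets, the rule took the one chosen by the highest mean over all 6 arrays, but each of the 10 had 1 single-gene probe set, so no measured value decided which was used. All 10 passed the filter on dim genes (a mean log2 level above 3.87), which left 11292 genes to test.

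The cells were C2C12, a line of mouse myoblasts that divides without limit and forms multinucleated myotubes in low serum. They were kept for 6 days in 2% horse serum and then, on day 6, given LNA (locked nucleic acid) oligonucleotides at a final 50 nM. An oligonucleotide that blocks miR-382-5p defines the 3 silenced arrays, and the oligonucleotide named Negative Control A defines the 3 control arrays. Both groups were harvested 24 h later, on day 7, so transfection, line and differentiation are shared and the oligonucleotide alone differs by label. The study's title places the question in mitochondrial proteins, and the synapse genes are a further readout of the same arrays. The labels do not tell separate cultures from repeats of the same one, so each p-value reflects sample-to-sample spread that may be technical. No nerve cells are named in the labels. The silenced microRNA is shown here with its seed, bases 2 to 8, in capitals, as RefSeq gives it for GRCm38.p6 (chr12:109733781-109733802, plus strand); the arrays did not measure this mature form.
mmu-miR-382-5p: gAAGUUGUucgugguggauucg

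The muscle acetylcholine receptor is a ring of subunits that opens when motor nerves release acetylcholine. Fetal and denervated muscle builds it with the gamma subunit, and adult innervated muscle replaces gamma by epsilon. Agrin, secreted mainly by motor neurons, binds LRP4, which activates the kinase MuSK. Dok-7 binds MuSK inside the cell and sustains its activity, and rapsyn then anchors the receptors in clusters. Cultured myotubes are known to express the fetal form and to respond to myogenic bHLH factors, which bind E-boxes in the subunit genes. The epsilon gene is known for an N-box, a site for ETS-family factors active under the synapse.

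Promoter sequences were looked up because the fetal and adult subunit genes are known to be controlled through different motifs. Windows of the 250 bases before an annotated start were found in RefSeq (GRCm38.p6) for 7 of the 10 genes. The windows of Chrng and Chrna1 end at the outer bound of the RefSeq gene. The windows of Chrnb1, Chrne, Musk, Dok7 and Agrn precede a start inside the RefSeq gene. Part or all of each therefore lies within the gene, as does the CAGGTG of the Chrnb1 window. The 4 subunit genes among them are printed 5′ to 3′ on the strand of the gene, with E-boxes (CANNTG, which reads the same on both strands) and N-boxes (CCGGAA, or TTCCGG on the other strand) in capitals. They lie at chr1:87205561-87205810 (Chrng, plus strand), chr2:73580339-73580588 (Chrna1, minus strand), chr11:69795938-69796187 (Chrnb1, minus strand) and chr11:70619195-70619444 (Chrne, minus strand).
Chrng: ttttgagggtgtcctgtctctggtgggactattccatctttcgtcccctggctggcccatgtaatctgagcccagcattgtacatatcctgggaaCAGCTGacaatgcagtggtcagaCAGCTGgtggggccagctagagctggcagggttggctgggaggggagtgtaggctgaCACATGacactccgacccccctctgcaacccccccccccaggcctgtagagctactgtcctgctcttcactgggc
Chrna1: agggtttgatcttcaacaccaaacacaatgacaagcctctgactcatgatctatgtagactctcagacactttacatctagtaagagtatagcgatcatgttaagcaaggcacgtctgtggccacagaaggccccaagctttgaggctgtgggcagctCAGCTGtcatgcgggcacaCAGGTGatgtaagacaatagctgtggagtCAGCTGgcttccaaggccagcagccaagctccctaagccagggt
Chrnb1: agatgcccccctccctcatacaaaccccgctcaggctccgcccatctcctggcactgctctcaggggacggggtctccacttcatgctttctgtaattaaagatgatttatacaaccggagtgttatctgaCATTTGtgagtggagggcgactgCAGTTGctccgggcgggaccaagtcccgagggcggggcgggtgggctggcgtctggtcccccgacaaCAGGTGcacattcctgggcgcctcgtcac
Chrne: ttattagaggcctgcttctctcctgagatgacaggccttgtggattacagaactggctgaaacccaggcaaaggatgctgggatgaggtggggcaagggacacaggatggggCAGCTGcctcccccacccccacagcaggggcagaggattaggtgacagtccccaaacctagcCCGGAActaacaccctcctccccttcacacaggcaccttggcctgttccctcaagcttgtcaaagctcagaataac
The Chrng window held 3 E-boxes. Of these, 2 had the letters CAGCTG and began 155 and 132 bases before the start, and the third read CACATG. The Chrna1 window also held 3, of which 2 read CAGCTG, beginning 92 and 44 bases before the start. The Chrnb1 window held 3 E-boxes and no CAGCTG. The Chrne window held 1 E-box, a CAGCTG, and the only N-box found in the 7 genes' windows. This N-box began 76 bases before the start used for the window. That start lies inside the gene, but the N-box lies upstream of the gene's outer bound. Among all 32851 RefSeq windows of this length, 66.2% held at least 1 E-box and 12.2% at least 3. At least 1 CAGCTG was found in 13.0%, at least 2 in 1.26%, and an N-box in 12.0%. The Musk window held 3 E-boxes, 1 of them CAGCTG, and all 3 lie within the RefSeq gene. Both the Chrng and the Chrna1 window therefore belong to the small share with a repeated CAGCTG, and Chrne to the share with an N-box. A match of letters is a description and not a binding site.

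All 5 receptor subunit genes had a higher mean in silenced arrays, by 1.12-fold to 1.38-fold, and none passed the adjusted threshold. Chrnb1 showed the widest separation, and 4 of the 5, Chrna1, Chrnb1, Chrnd and Chrng, had all 3 silenced values above all 3 control values, as did 6.94% of all tested genes. Among the clustering genes the same held for Lrp4 and, by a narrow margin, Musk. Agrn was the 1 gene of the 10 with a lower mean.

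Levels are log2 expression values as deposited, differences are silenced minus control on that scale, and their errors are the moderated standard errors (SE) of limma. Group values are mean ± SD with n = 3. Probe sets differ in how strongly they respond, so the level of a gene was not set against that of another gene.

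Chrnb1 encodes the beta subunit, which is part of both the fetal and the adult receptor. It read 9.11, 9.06 and 9.11 in control replicates 1 to 3 and 9.69, 9.49 and 9.49 in silenced replicates 1 to 3. The groups lay apart by 0.38, more than the range within either of them, and silenced replicate 1 was highest. The difference was 0.46 ± 0.086 (SE), a 1.38-fold higher level with a 95% confidence interval of 0.26 to 0.66 log2. Its unadjusted p of 0.00088 was the 8th smallest of the 11292 genes, and its adjusted p by limma was 0.871.

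Chrng encodes the gamma subunit of the fetal receptor. It read 10.48, 10.45 and 10.42 in control and 10.56, 10.76 and 10.85 in silenced replicates 1 to 3. The control values were tightly grouped, the silenced ones were spread, and silenced replicate 1 lay only 0.081 above the highest control array. The difference was 0.27 ± 0.095 (SE), with an interval of 0.050 to 0.50 (limma, unadjusted p = 0.023, adjusted p = 0.871).

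Chrna1 encodes the alpha subunit, which carries the main contacts for acetylcholine. It read 11.55, 11.44 and 11.48 in control and 11.57, 11.75 and 11.63 in silenced replicates. Chrnd, for the delta subunit, read 9.93, 9.83 and 9.84 in control and 9.97, 9.98 and 10.23 in silenced replicates. Neither gene's groups overlapped, but the gaps were small, 0.024 for Chrna1 and 0.042 for Chrnd, and in both genes the control array numbered 1 stood closest to the silenced values. The highest Chrnd value, silenced replicate 3, lay well above the other arrays. The differences were 0.16 (95% interval -0.035 to 0.36) for Chrna1 and 0.20 (-0.034 to 0.42) for Chrnd, both intervals including 0. Without silenced replicate 3 the difference of Chrnd was 0.11.

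Chrne encodes the epsilon subunit of the adult receptor. It read 5.59, 5.60 and 6.09 in control and 5.84, 5.77 and 6.15 in silenced replicates 1 to 3. The groups overlapped, because both arrays numbered 3 were high and the other 4 low. The difference was 0.16, with a wide interval of -0.22 to 0.55 (limma, unadjusted p = 0.36). Within numbers 1, 2 and 3 the silenced array was higher by 0.25, 0.17 and 0.061, so all 3 pairs had the same direction. Over the 6 arrays left out in turn the Chrne difference ranged from 0.046 (without silenced replicate 3) to 0.32 (without control replicate 3).

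**Figure D1:**
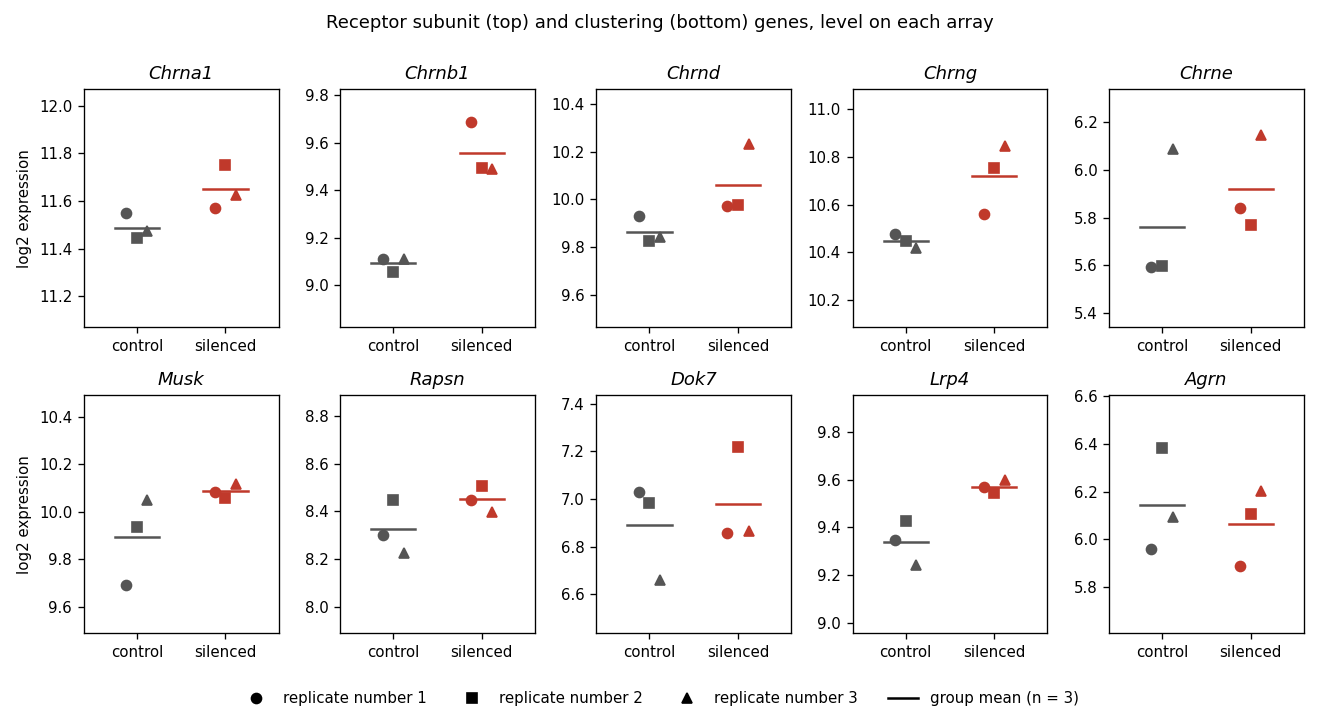
Log2 expression of the 10 genes on each array, with control arrays in grey, silenced arrays in red, marker shape giving the replicate number and bars the group means (n = 3); each panel spans 1 log2 unit but has its own range. Chrnb1 shows control values of 9.06 to 9.11 and silenced values of 9.49 to 9.69, while Chrne is highest on both arrays numbered 3 (6.09 and 6.15).

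The fetal and adult subunits were compared through the within-array difference Chrng minus Chrne, which shows unequal change and not which subunit is more abundant. It was 4.89, 4.85 and 4.33 in control replicates and 4.72, 4.99 and 4.70 in silenced replicates. The lowest value was control replicate 3 and the highest silenced replicate 2, and the groups overlapped. Control arrays averaged 4.69 ± 0.31 and silenced arrays 4.80 ± 0.16, which differ by 0.11 (exact 2-sided permutation test, p = 0.8, where 3 against 3 allows no p under 0.1). Within numbers 1, 2 and 3 the difference was -0.17, 0.14 and 0.37, and without control replicate 3 the mean difference was -0.067, the opposite direction. It was 0.019 without silenced replicate 2 and 0.25 without both arrays numbered 1. No shift between the fetal and adult subunit transcripts was resolved at this number of arrays, which does not show that their ratio stayed equal.

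**Figure D2:**
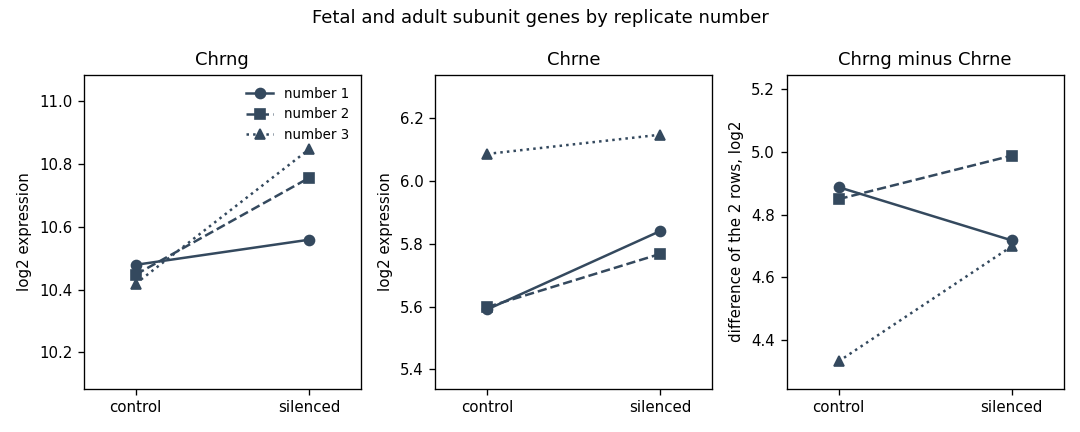
Log2 expression of Chrng and Chrne, and the within-array difference Chrng minus Chrne, with a line joining the control and silenced arrays of each replicate number; each panel spans 1 log2 unit. Lines go up for both genes in all 3 numbers, while those of Chrng minus Chrne go down for number 1 (-0.17) and up for numbers 2 (0.14) and 3 (0.37).

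The subunit genes did not differ by the same amount in every pair of arrays. Within number 1 the differences were 0.58 for Chrnb1 but 0.024, 0.042 and 0.081 for Chrna1, Chrnd and Chrng. Within number 3 they were 0.38 for Chrnb1 and 0.15, 0.39 and 0.43 for the same genes. Chrnb1 minus the mean of those 3 genes, a contrast chosen after its values were seen, was -1.51 ± 0.038 in control and -1.26 ± 0.21 in silenced arrays. All 3 silenced values (-1.02, -1.33 and -1.42) were above all 3 control values (-1.54, -1.51 and -1.47). The exact 2-sided permutation test gave p = 0.1, and a sign-flip test over the pairs gave p = 0.25. Each is the smallest value that its test allows. As the contrast was chosen from these same values, neither p counts as a test of it. The size of the contrast depended most on silenced replicate 1. The difference was 0.25 with all arrays, 0.13 without silenced replicate 1 and 0.24 without control replicate 1. It was 0.12 without both arrays numbered 1.

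Among the clustering genes, Lrp4, the agrin receptor, read 9.35, 9.43 and 9.24 in control and 9.57, 9.55 and 9.60 in silenced replicates. The silenced values were close together and 0.12 above the highest control value. The difference was 0.23 ± 0.081 (SE), a 1.17-fold higher level (limma, unadjusted p = 0.024, adjusted p = 0.871). Musk, the receptor kinase, read 9.69, 9.94 and 10.05 in control and 10.09, 10.06 and 10.12 in silenced replicates. Its groups were separated by only 0.0086, and control replicate 1 stood low, so that the difference of 0.19 (interval -0.054 to 0.44) was 0.093 without that array.

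Rapsn, which encodes the receptor anchor rapsyn, read 8.30, 8.45 and 8.23 in control and 8.45, 8.51 and 8.40 in silenced replicates. All 3 pairs had the higher value in the silenced array, but control replicate 2 lay above silenced replicate 3, so the groups overlapped (difference 0.13, interval -0.081 to 0.33; 0.077 without control replicate 3). Dok7, the adaptor that binds MuSK, ranged from 6.66 to 7.03 in control and from 6.86 to 7.22 in silenced arrays, and the pair numbered 1 went the other way (-0.17). Agrn ranged from 5.96 to 6.38 in control and from 5.89 to 6.20 in silenced arrays, with a difference of -0.081 (interval -0.40 to 0.24) and 1 of 3 pairs higher. The direction of Dok7 turned without silenced replicate 2 (-0.031) or control replicate 3 (-0.027), and that of Agrn without silenced replicate 1 (0.0071) or control replicate 2 (0.038).

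**Figure D3:**
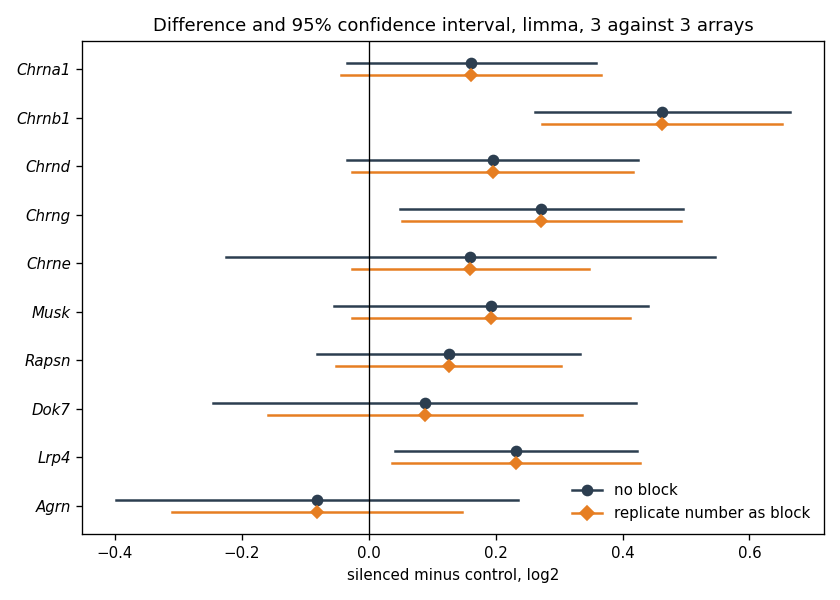
Silenced minus control difference of each gene on the log2 scale with its 95% confidence interval from limma, without a block (circles) and blocked on the replicate number (diamonds); the vertical line marks 0. The intervals of Chrnb1, Chrng and Lrp4 exclude 0 in both fits, and no gene passed the threshold after adjustment over all genes.

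Of the 10 genes, 0 passed limma's adjusted threshold of 0.05, as did 0 of the 11292 genes (0%), with a smallest adjusted p of 0.487 over all genes. At an unadjusted p under 0.05, 3 of the 10 were higher (Chrnb1, Chrng and Lrp4) against 2.83% of all genes, and 0 were lower against 1.97%. All 3 silenced values lay above all 3 control values for 6 of the 10, against 6.94% of all genes. A higher mean was found for 9 of the 10, against 52.7% of all genes, and all 3 pairs were higher for 8 of the 10, against 19.7%. The median difference was 0.18 over the 10 genes, 0.20 over the subunits and 0.13 over the clustering genes, beside 0.0089 over all tested genes. The genes were chosen with earlier results of these data known, they are transcribed in the same cells and their values on 1 array are not independent, so these shares are descriptions.

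The replicate numbers were treated as possible pairs because same-numbered arrays deviated together, which the arrays numbered 1 alone can bring about. With the replicate block 0 genes were called (0%), and the same 3 genes were higher at an unadjusted p under 0.05, against 5.77% of all genes, with 0 lower, against 4.57%. For Chrne the block removed the high level of both arrays numbered 3 and narrowed the interval to between -0.027 and 0.35 (limma, unadjusted p = 0.081). Chrnb1 had an unadjusted p of 0.00084 with the block, the 10th smallest, and an adjusted p by limma of 0.464 (0.460 to 1.00 over the 15 alternatives).

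**Figure D4:**
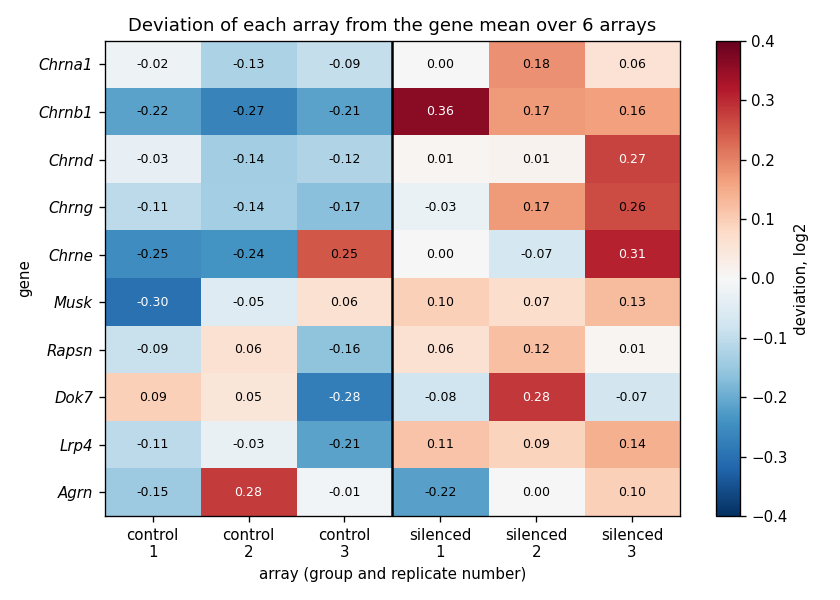
Deviation of each array from the gene's mean over the 6 arrays, in log2 units, with red above and blue below that mean and control arrays left of the black line. Chrnb1 is between -0.27 and -0.21 on the control arrays and between 0.16 and 0.36 on the silenced arrays, while Chrng, Chrne, Musk, Rapsn, Dok7 and Agrn have both signs within a group.

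In total RNA of a whole culture, fewer cells of a type and less RNA per cell cannot be told apart. Markers of differentiated myotubes were present, as the label says. Silenced arrays had higher means for 8 of 8 genes, against 52.7% of all genes. The 8 differences ran from 0.016 to 0.31, with a median of 0.18 (0.090 without silenced replicate 3). All 3 silenced values lay above all 3 control values for 3 of the 8, against 6.94% of all genes. The summed log2 level of the 8 markers ranged from 86.1 to 86.6 in control and from 86.8 to 88.8 in silenced arrays, without overlap. Among them Myh3, the embryonic myosin heavy chain, differed by 0.26 ± 0.081 (SE) and Mymk, for the myoblast fusion factor myomaker, differed by 0.22 ± 0.077 (SE), whereas Ckm, muscle creatine kinase, named after its value was seen, differed by 0.034. The part of these markers in the differences of the receptor genes was not tested. Markers of undifferentiated myoblasts and fibroblasts were mixed, with 3 of 7 tested genes higher, 4 lower and summed levels of 63.4 to 66.1 in control and 63.6 to 65.9 in silenced arrays. The examples with the smallest p were Pax7, a satellite cell factor (0.22 ± 0.090, SE), and Myf5, a myoblast factor (-0.21 ± 0.12, SE). Motor neuron and Schwann cell markers were dim: 0 of the 7 named genes passed the filter, with means of 2.29 to 3.77 and summed levels of 20.8 to 21.9 in control and 21.0 to 21.9 in silenced arrays. All 11 neuronal nicotinic subunit genes were also under the filter, with means of 2.32 to 3.31 and summed levels of 30.3 to 31.1 in control and 30.5 to 31.4 in silenced arrays.

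Other genes of the synapse were taken from 6 lists with 77 genes, of which 70 could be named on the arrays and 68 passed the filter. None of the 68 passed limma's adjusted threshold with or without the block. At an unadjusted p under 0.05, 5 were higher and 0 lower, which is 7.35% higher against 2.83% of all genes; with the block 10 were higher and 0 lower, where 5.77% of all genes were higher and 4.57% lower. All 3 silenced values lay above all control values for 10 of the 68, or 14.7%, against 6.94% of all genes.

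The list of neuregulin and synaptic transcription genes had a median difference of 0.12 over 8 tested genes, 6 higher and 2 lower (0.22 without control replicate 2, 0.079 without control replicate 3 and 0.034 with no filter on dim genes). Erbb3, a neuregulin receptor, read 7.76, 7.68 and 7.61 in control and 8.02, 7.85 and 8.18 in silenced replicates, a difference of 0.34 ± 0.11 (SE). The groups did not overlap, and silenced replicate 3 was highest. The genes named from each list have its smallest p, which makes a lack of overlap likely. All silenced values lay above all control values for 2 of the 8 tested genes in this list and 2 of the 14 in the next, against 6.94% of all genes. Etv5, an ETS-family factor known from synaptic nuclei, differed by 0.20 ± 0.088 (SE), and its groups did not overlap either. Postsynaptic scaffold and membrane genes had a median of 0.099 over 14 tested genes, 11 higher and 3 lower (0.053 without silenced replicate 3). In that list Ncam1, the neural cell adhesion molecule, read 11.59, 11.64 and 11.51 in control and 11.79, 11.82 and 11.83 in silenced replicates, again without overlap (0.23 ± 0.076, SE), and Utrn, which encodes utrophin, differed by 0.19 ± 0.091 (SE).

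Genes of the cleft and basal lamina had a median of 0.048 over 14 genes, 12 higher and 2 lower, which was 0.095 without control replicate 1, 0.082 without control replicate 2 and 0.094 with the filter at the 60th percentile. Lama2, the laminin alpha chain of the muscle basal lamina, read 7.64, 7.63 and 7.63 in control and 7.82, 7.95 and 7.86 in silenced replicates (0.24 ± 0.076, SE), and Hspg2, which encodes perlecan, differed by 0.14 ± 0.092 (SE). The control values of Lama2 were nearly identical and the silenced ones all higher. It was the 1 gene of these 14 with all silenced values above all control values, as 6.94% of all genes had. Kinases and adaptors downstream of MuSK had a median of 0.049 over 20 genes, 12 higher and 8 lower, and 0.026 without control replicate 3 or 0.027 without both arrays numbered 1. In that list Sorbs2, a cytoskeletal adaptor, was at 0.25 ± 0.087 (SE) and Macf1, a microtubule-actin crosslinker, at 0.19 ± 0.080 (SE). The activity-dependent and denervation list had a median of 0.028 over 7 genes, 5 higher and 2 lower. That median had no settled direction: leaving out silenced replicate 2 gave -0.0068 and leaving out silenced replicate 3 gave -0.0054, but it was 0.11 without silenced replicate 1 and 0.16 without control replicate 2. Its smallest p values belonged to Runx1, a transcription factor induced by denervation (0.17 ± 0.072, SE), and Myod1, a myogenic bHLH factor (0.098 ± 0.11, SE). Myog, the bHLH factor myogenin, chosen after its values were seen, read 9.83, 10.12 and 10.20 in control and 9.84, 10.02 and 10.17 in silenced replicates (-0.040 ± 0.13, SE), with overlapping groups that were both lowest in number 1. Receptor assembly and glycosylation genes had a median of 0.046 over 5 genes, ranging from 0.00029 (without control replicate 3) to 0.11 (without silenced replicate 3) with single arrays left out. Leaving out silenced replicate 1 gave 0.019, silenced replicate 2 gave 0.026 and control replicate 2 gave 0.087. Its genes with the smallest p were Alg2 at 0.18 ± 0.13 (SE) and Alg14 at -0.22 ± 0.12 (SE), both genes known from inherited myasthenia.

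**Figure D5:**
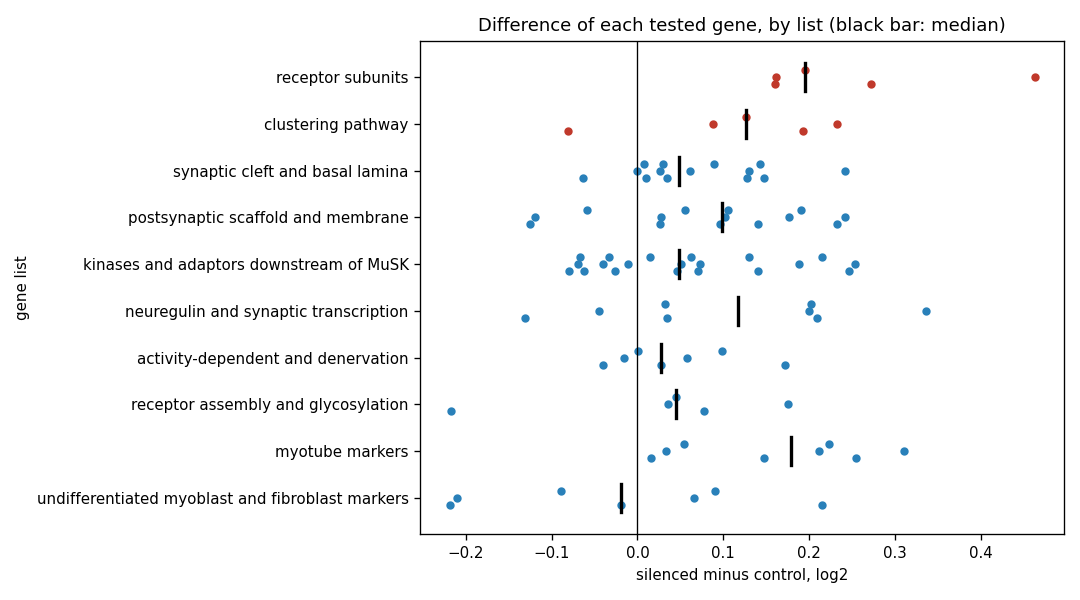
Silenced minus control difference on the log2 scale for each tested gene (points, shifted vertically only to keep them apart) by list, with receptor and clustering genes in red, other lists in blue and a black bar at each list's median. The subunits lie between 0.16 and 0.46, and the medians of the lists of other synapse genes lie between 0.028 and 0.12 with all arrays and between -0.0068 and 0.22 with single arrays left out.

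The mean deviation of Chrna1, Chrnb1, Chrnd and Chrng was -0.094, -0.17 and -0.15 in control and 0.087, 0.13 and 0.19 in silenced replicates 1 to 3. The 5 other genes nearest to this pattern over the 6 arrays, by root mean square distance of deviations from each gene's own mean, were Rnf111, a ubiquitin ligase (0.026 log2), Myh3 (0.028), the lipoprotein receptor family gene Lrp10 (0.030), the endocytic adaptor gene Epn1 (0.031) and Ogdh, a subunit of 2-oxoglutarate dehydrogenase (0.034). A gene with no variation would lie at 0.14. Of the 6 receptor and clustering genes outside that average, Lrp4 lay nearest (0.069), followed by Rapsn (0.12), Musk (0.13), Dok7 (0.19), Chrne (0.20) and Agrn (0.24). The genes nearest to Chrne were Zfp398, a zinc finger gene (0.063), Sh3rf1, a ubiquitin ligase scaffold (0.066), and Plcd3, a phospholipase C gene (0.070), all 3 highest on both arrays numbered 3. These genes were picked from 11292 over 6 arrays, and the distances are descriptions.

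Both arrays numbered 1 stood apart from the other 4 over all tested genes (first principal component, 46.8% of the variance, -19.3 and -15.0 against 7.29 to 9.96). Without both of them the median difference over the 10 genes was 0.23. Chrnb1 differed by 0.41 without them, Chrng by 0.37, Chrnd by 0.27, Lrp4 by 0.24, Chrna1 by 0.23 and Dok7 by 0.22. The other genes differed less: Chrne by 0.12, Rapsn by 0.11, Musk by 0.093 and Agrn by -0.086.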

How the data were processed

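Gene expression was measured on 6 arrays. The deposited table holds log2 expression values of 35556 probe sets, which the authors made with RMA (per the submitters' processing notes, without a version or probe set definition). This method can understate differences of dim genes. The platform annotation named 21218 probe sets with 1 gene and 1881 with several; the row with the highest mean was kept, giving 18820 genes. Those above the 40th percentile of the mean were tested.

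The fit used lmFit and eBayes of limma 3.58.1 (R 4.3.3), 2-sided, with Benjamini-Hochberg adjustment over all tested genes, and tested on simulated data. The number of arrays limits the precision. Deviations of same-numbered arrays correlated at 0.55, 0.35 and 0.42 over genes, so the numbers were taken as pairs, from the data and not a label. Named genes are the 10 genes, the 2 with the smallest p of each other list, and those nearest in pattern; Ckm and Myog were added after their values were seen. The genes and lists were chosen with earlier results of these data known. Promoter and microRNA sequences are from RefSeq. Alternatives were the block, other filters, normalizations, probe set rules and variance models, and arrays left out.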

Additional observations from a re-analysis of the deposited data

How the results depend on the processing

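No gene was called in any of the 15 alternatives, among all genes, the 10 genes or the other lists (limma, smallest adjusted p 0.355 over all genes). The differences of Chrna1, Chrnb1, Chrnd, Chrng, Chrne, Musk, Rapsn and Lrp4 stayed above 0 in every alternative that tested them; Chrne and Agrn were not tested with the filter at the 60th percentile. Chrnb1 ranged from 0.40 to 0.50 with an unadjusted p under 0.05 in 15 of 15, Chrng from 0.21 to 0.37 in 11 and Lrp4 from 0.18 to 0.28 in 12. Of the 10 genes, 3 were higher at an unadjusted p under 0.05 with the replicate block, and 1 to 3 with 1 array left out. The 1 was Chrnb1, without silenced replicate 3. With limma's trend and robust variance model 4 were higher, Chrna1 included. The median difference of the 10 genes was 0.16 to 0.22 with 1 array left out and 0.23 without both arrays numbered 1. Chrng minus Chrne ranged from -0.067 (without control replicate 3) to 0.21 with 1 array left out. With 1 array left out, Dok7 ranged from -0.031 to 0.16 and Agrn from -0.17 to 0.038; the cause was not tested. The paired fit changed no call.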
